A study of Homo sapiens with 12 samples.

Results

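This report describes 58 genes of DNA replication and of the step from G1 into S phase in the cultured human prostate cancer line MDA-PCa-2b. The members were given as a list of symbols and were matched to the gene identifiers of the count tables. All 58 were found among 63241 genes, and all 58 passed the filter on low counts that kept 19373 genes for testing. RNA was sequenced after poly-A selection in 12 libraries of the same line. The libraries labelled KD1 and KD2 (3 each) are knockdowns 1 and 2 of DHODH per the labels, those labelled KDR (3) are the rescue of knockdown 2, and those labelled NT (3) are taken as the controls. The labels give neither the knockdown construct, nor the meaning of NT, nor how the rescue was made, nor whether replicates were separate cultures, so p-values measure the spread between these libraries, which may be technical. All groups share 1 culture protocol on medium with serum, which names the line MDA-PCa-2a beside MDA-PCa-2b.

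Replication is prepared in G1, when the origin recognition complex (ORC) with CDC6 and CDT1 loads the MCM2-7 ring onto DNA. At the start of S phase the kinase CDC7 with DBF4, together with CDK2 and cyclin E, turns the ring into an active helicase by adding CDC45 and the GINS complex, and primase and the polymerases then copy the strands behind it. Many of these genes are transcribed by E2F factors, which the pocket protein RB1 holds back until cyclin D with CDK4 or CDK6 and cyclin E with CDK2 phosphorylate it. DHODH, dihydroorotate dehydrogenase, makes a precursor of the pyrimidine nucleotides that replication consumes.

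Libraries held 23786288 to 38240369 counts. Levels are in CPM, a gene's counts scaled to the size of its library, with sizes adjusted by TMM (trimmed mean of M values). Changes are log2 fold changes from edgeR's quasi-likelihood fit of all 12 libraries. Called genes are those under 0.05 in adjusted p (Benjamini-Hochberg, over all genes tested), and ± after a change is its SE. DHODH itself stood at 11.0, 10.4 and 9.63 CPM in the libraries labelled KD1, at 11.4, 13.0 and 14.9 CPM in those labelled KD2, at 18.9, 19.2 and 17.5 CPM in those labelled KDR and at 9.19, 13.4 and 8.95 CPM in NT. The targeted RNA was thus not called lower under either knockdown label (log2 fold change -0.028 for KD1 and 0.31 for KD2 against NT, edgeR adjusted p = 0.97 and 0.097), so directions below belong to the labels and not to a DHODH loss seen in RNA. Without NT replicate 2, DHODH was called higher under KD2 than in NT (0.52, adjusted p = 0.0014). Under KDR it was higher than under KD2 (0.51 ± 0.14, adjusted p = 0.0064; 0.41 and 0.052 without KD2 replicate 1). NT replicate 2 stood apart from the other NT libraries: the biological coefficient of variation over all genes was 15.7% in NT, 8.57% in NT without it, and 5.52% to 7.16% in the other groups. All 10 luminal prostate markers were at 1 CPM or more, among them KLK3, while 9 of 10 fibroblast, 9 of 10 immune and 7 of 9 endothelial markers were under 1 CPM in every group, with POSTN, CD3E, CDH5, TEK and ERG among those at 0 counts throughout.

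These promoters are shown because many members hold the same letters in them. Letters of the E2F consensus (TTTCCCGC, TTTCGCGC, TTTGCCGC or TTTGGCGC, on either strand) were searched in RefSeq windows of 300 bases, 250 before to 50 after an annotated start, on GRCh38.p14. Each is given 5′ to 3′ in the direction of its gene, with matches in capitals (ORC2 has none). The first 4 are the members with the largest rise in the libraries labelled KD2 among those that hold a match, and the last 2 are members that were not called there.
E2F2 (chr1:23531184-23531483, minus strand): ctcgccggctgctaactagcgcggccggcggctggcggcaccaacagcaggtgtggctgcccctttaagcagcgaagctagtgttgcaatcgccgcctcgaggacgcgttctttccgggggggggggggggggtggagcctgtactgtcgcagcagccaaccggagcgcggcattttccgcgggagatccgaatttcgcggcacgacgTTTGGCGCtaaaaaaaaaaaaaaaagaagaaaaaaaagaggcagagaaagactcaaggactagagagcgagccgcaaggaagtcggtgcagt
CDT1 (chr16:88803539-88803838, plus strand): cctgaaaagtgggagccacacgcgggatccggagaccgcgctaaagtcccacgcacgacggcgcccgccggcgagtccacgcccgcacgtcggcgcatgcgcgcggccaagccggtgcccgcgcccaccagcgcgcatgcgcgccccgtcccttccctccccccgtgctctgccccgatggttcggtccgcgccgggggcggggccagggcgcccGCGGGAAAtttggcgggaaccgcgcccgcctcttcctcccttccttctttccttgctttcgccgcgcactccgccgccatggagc
CDC6 (chr17:40287629-40287928, plus strand): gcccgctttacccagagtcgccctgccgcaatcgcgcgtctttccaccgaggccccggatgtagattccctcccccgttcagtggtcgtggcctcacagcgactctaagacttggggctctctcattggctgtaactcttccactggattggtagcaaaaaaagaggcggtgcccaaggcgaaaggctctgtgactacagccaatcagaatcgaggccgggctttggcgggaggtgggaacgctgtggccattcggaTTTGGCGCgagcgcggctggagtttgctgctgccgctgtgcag
CLSPN (chr1:35769929-35770228, minus strand): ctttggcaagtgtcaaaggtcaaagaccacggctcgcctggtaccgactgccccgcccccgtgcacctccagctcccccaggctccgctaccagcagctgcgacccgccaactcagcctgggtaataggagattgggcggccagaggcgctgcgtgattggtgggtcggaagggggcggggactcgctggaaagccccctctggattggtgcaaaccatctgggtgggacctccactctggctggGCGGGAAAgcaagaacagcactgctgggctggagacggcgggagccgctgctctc
ORC2 (chr2:200963611-200963910, minus strand): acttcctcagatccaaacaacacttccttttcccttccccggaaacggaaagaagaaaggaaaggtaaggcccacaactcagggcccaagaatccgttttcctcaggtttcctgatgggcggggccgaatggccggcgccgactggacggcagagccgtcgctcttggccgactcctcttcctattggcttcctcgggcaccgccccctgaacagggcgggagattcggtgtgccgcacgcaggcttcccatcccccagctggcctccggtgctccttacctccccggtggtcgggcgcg
GMNN (chr6:24775163-24775462, plus strand): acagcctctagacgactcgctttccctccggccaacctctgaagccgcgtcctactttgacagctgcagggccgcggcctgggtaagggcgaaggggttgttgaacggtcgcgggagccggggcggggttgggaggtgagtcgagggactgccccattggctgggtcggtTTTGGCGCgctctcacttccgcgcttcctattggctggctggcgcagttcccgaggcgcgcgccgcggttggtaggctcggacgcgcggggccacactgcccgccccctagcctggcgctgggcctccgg

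Of the 58 members, 48 had a window in the table, with 61 windows in all. CCND1, CCNE2, CDK2, E2F8, GINS4, MCM4, MCM5, POLD3, RPA2 and RPA3 had no entry. The E2F letters stood in 23 of these 61 windows (37.7%), against 1164 of all 35116 windows (3.31%) and 815 of the 17475 windows of genes tested here (4.66%). By gene, matches were found for 7 of 9 helicase members with a window (MCM2, MCM3, MCM6, MCM7, GINS1, GINS2 and GINS3), 4 of 7 licensing members (CDC6, CDT1, GMNN and ORC3) and 4 of 8 polymerase and primase members (POLA1, POLA2, POLE and POLE2). None of 4 G1/S cyclin and kinase members with a window held them. Forward and reverse matches overlap in MCM2, MCM6 and TIPIN, so these genes hold fewer separate stretches than matches. Members called higher in the libraries labelled KD2 held the letters in 20 of 48 windows (41.7%), and members not called in 3 of 13 (23.1%), those of GMNN, ORC3 and POLA2. GMNN has a second listed start whose window held no match. CDC45, MCM10, ORC1 and E2F7, which are among the members with the largest changes, had no match in these windows. The short CHR letters (TTTGAA or TTTAAA, either strand), known from promoters of late cell cycle genes, stood in 4 of 61 member windows (6.56%), against 17.4% of the windows of genes tested. These matches are descriptions of letters, not of bound sites, and the windows of members had a GC content of 64.43%, against 63.06% for genes tested.

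In the libraries labelled KD2, replication genes rose together. Of 58 members, edgeR called 47 higher and 0 lower than NT, where 17.8% of all genes tested were called higher and 18.2% lower. The median log2 fold change of the members was 0.62, beside -0.0099 over all genes. On the log2 scale 17 members rose by at least 1, a cut at which the share of all genes was not counted. All 3 libraries labelled KD2 lay above all 3 NT libraries for 49 members and below them for 1, CDK6, against 21.5% and 20.9% of all genes. At an unadjusted p under 0.05 there were 50 members higher and 0 lower (43.5% of all genes in either direction), and DESeq2 called 49 and limma-voom 50 higher, with 0 lower by either. Without NT replicate 2, edgeR called 50 higher and 0 lower. In bulk RNA, more cells in S phase and more of these RNAs per cell cannot be told apart.

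**Figure D1:**
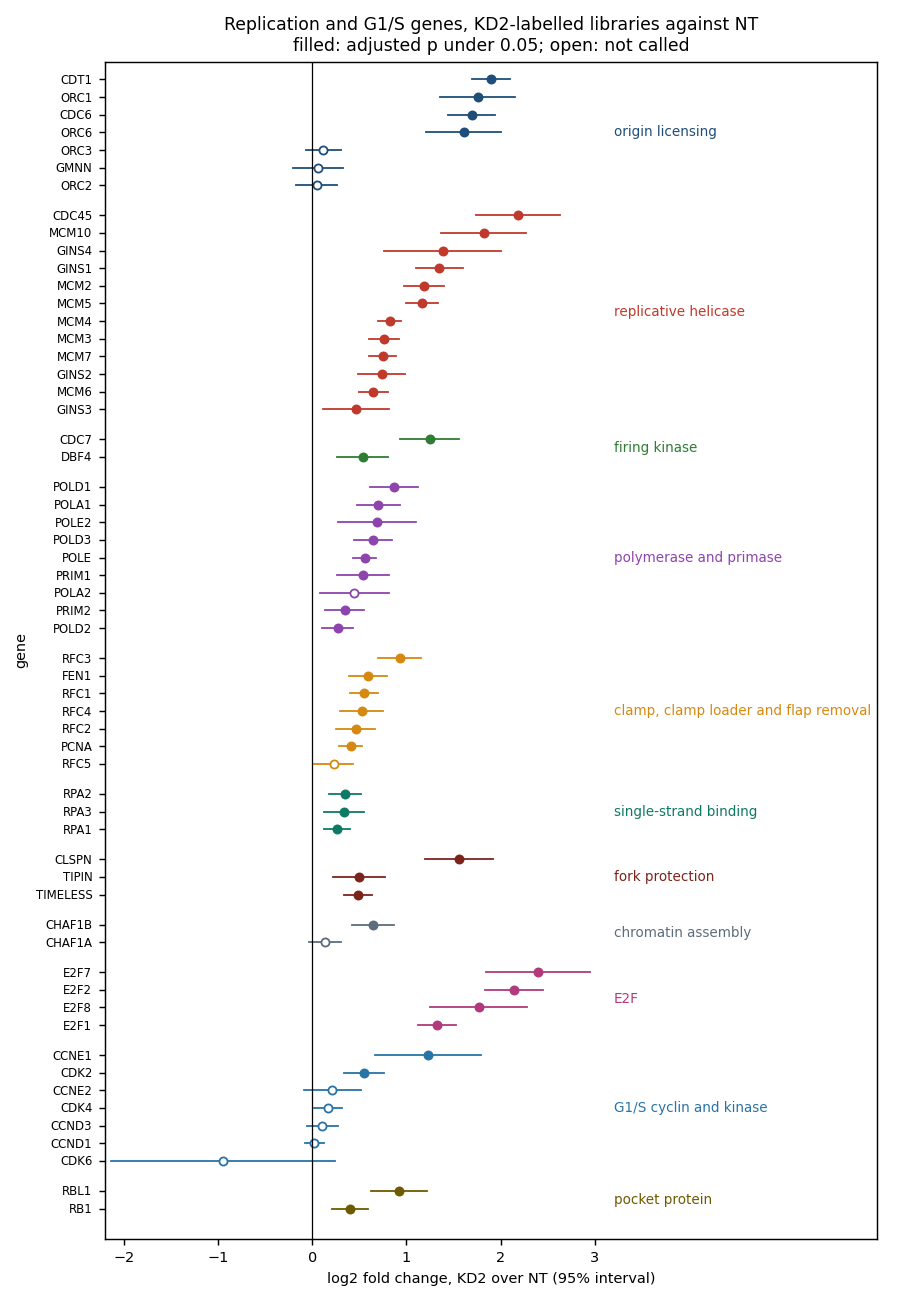
Log2 fold change of each of the 58 genes in the libraries labelled KD2 over NT (points) with its 95% interval from edgeR (lines), grouped by role; filled points were called. E2F7, CDC45 and E2F2 lie farthest to the right, while ORC2, ORC3, GMNN, CCND1 and CCND3 lie near 0 and CDK6 has the widest interval.

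Among licensing factors, 4 of 7 rose and 3 were not called. CDT1, which brings the MCM ring to origins (ENSG00000167513, GRCh38 chromosome 16, 88803789 to 88809258), had 42.3, 44.0 and 39.7 CPM under KD2, against 10.5, 12.1 and 11.2 CPM in NT. Its groups were far apart, with a log2 fold change of 1.90 ± 0.096 (SE; edgeR adjusted p = 3.2e-13), the smallest p of all members. CDC6, the ATPase that works with CDT1 (ENSG00000094804, GRCh38 chromosome 17, 40287879 to 40304657), had 36.4, 33.6 and 31.1 CPM under KD2, against 9.44, 9.85 and 12.0 CPM in NT (1.69 ± 0.12, adjusted p = 1.1e-10). ORC1, the ORC subunit whose level is known to follow the cell cycle, had 9.79, 9.96 and 11.1 CPM under KD2, against 3.17, 2.28 and 3.70 CPM in NT (1.76 ± 0.19), and ORC6 rose by 1.61 ± 0.19. Every library labelled KD2 was above every NT library for these 4 genes. The core subunits ORC2 and ORC3 did not pass the test: ORC2 had 42.4, 38.5 and 34.7 CPM under KD2 and 37.7, 30.5 and 44.0 CPM in NT, and ORC3 a log2 fold change of 0.12 (95% interval -0.067 to 0.30). GMNN, geminin, which binds and blocks CDT1, had 30.4, 33.6 and 30.1 CPM under KD2 and 30.7, 21.8 and 37.8 CPM in NT, with a log2 fold change of 0.062 (-0.20 to 0.33, adjusted p = 0.75). NT replicate 2 was the lowest NT library for geminin, and without it the log2 fold change was -0.12.

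**Figure D2:**
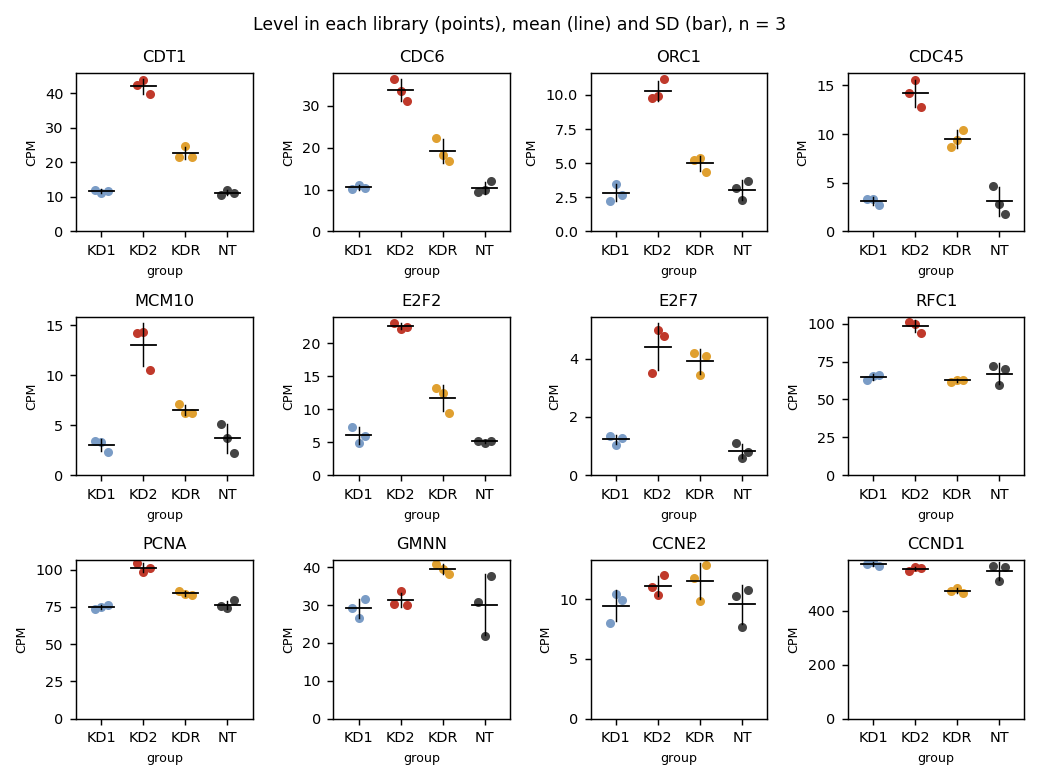
CPM of 12 genes in each library (points) with the group mean (line) and SD (bar), n = 3 per group, each axis starting at 0. For CDT1, CDC6, ORC1, E2F2 and CDC45 the libraries labelled KD2 are highest, those labelled KDR lie lower, and those labelled KD1 lie with NT; RFC1 has KDR beside NT, GMNN is highest and CCND1 lowest in KDR.

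All 12 genes of the replicative helicase and its assembly rose in the libraries labelled KD2. CDC45, the part of the active helicase that is added last together with GINS, changed most (ENSG00000093009, GRCh38 chromosome 22, 19479457 to 19520612): 14.3, 15.5 and 12.8 CPM under KD2, against 4.69, 2.81 and 1.75 CPM in NT, a log2 fold change of 2.18 ± 0.22 (adjusted p = 3.1e-08). MCM10, which helps activate the helicase, had 14.2, 14.4 and 10.6 CPM under KD2, against 5.09, 3.70 and 2.21 CPM in NT (1.82 ± 0.22). The NT libraries of both genes spread widely, yet none reached a library labelled KD2. The 4 GINS genes rose unequally, GINS4 by 1.38 ± 0.30, GINS1 by 1.35 ± 0.12, GINS2 by 0.74 ± 0.12 and GINS3 by 0.47 ± 0.17. GINS4 has few counts, 17 to 152 a library, and 23.4% of its exonic length overlaps other genes.

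The 6 subunits of the MCM2-7 ring, which form it in equal numbers, rose by unequal amounts. MCM2 (ENSG00000073111, GRCh38 chromosome 3, 127598410 to 127622436) had 28.4, 29.3 and 28.6 CPM under KD2, against 11.8, 14.5 and 11.7 CPM in NT (1.18 ± 0.10), and MCM5 had 54.2, 55.6 and 53.5 CPM under KD2, against 21.5, 26.5 and 24.9 CPM in NT (1.16 ± 0.082). MCM4 rose by 0.83 ± 0.059, MCM3 by 0.76 ± 0.078, MCM7 by 0.75 ± 0.070 and MCM6 by 0.65 ± 0.074. On the scale per length (RPKM, the CPM divided by the annotated exon length in kilobases), the RNA of MCM3 was the highest and that of MCM2 the lowest in every group. MCM3 stood at 34.7 ± 0.480 RPKM under KD2 and 20.5 ± 2.74 RPKM in NT, and MCM2 at 6.10 ± 0.0936 RPKM under KD2 and 2.68 ± 0.335 RPKM in NT (mean ± SD, n = 3 each). The ratio of the highest to the lowest subunit level was 7.60 in KD1, 5.68 in KD2, 6.67 in KDR and 7.62 in NT. These levels use the length of all annotated exons, and 23.6% of that of MCM2 overlaps another gene, where the counting tool by default counts no read.

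**Figure D3:**
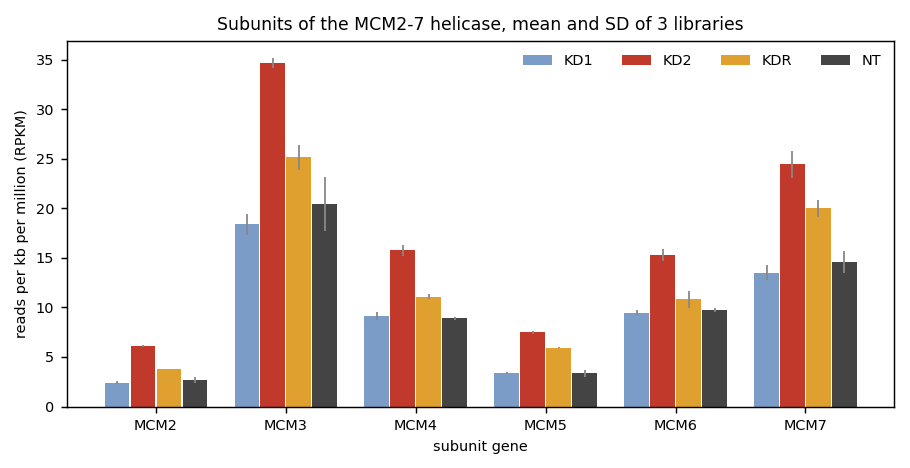
Mean level of the 6 MCM2-7 subunits in RPKM, with SD as bars (n = 3 per group), from an axis starting at 0. In each subunit the libraries labelled KD2 are highest, and in all 4 groups MCM3 and MCM7 have the highest means and MCM2 and MCM5 the lowest.

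The origin-firing kinase rose in both parts. CDC7, the catalytic subunit, had 16.9, 17.0 and 17.4 CPM under KD2, against 7.36, 5.22 and 9.11 CPM in NT (1.25 ± 0.15, adjusted p = 5.8e-07). Its activator DBF4 rose by 0.54 ± 0.13. Among polymerases and primase, 8 of 9 genes rose and none reached a log2 fold change of 1. POLD1, the catalytic subunit of polymerase delta on the lagging strand, had 38.1, 38.2 and 46.0 CPM under KD2, against 18.5, 26.9 and 21.5 CPM in NT (0.87 ± 0.12). POLA1, the catalytic subunit of the polymerase that extends primers, rose by 0.70 ± 0.11, POLE2 of polymerase epsilon by 0.69 ± 0.20, POLD3 by 0.65 ± 0.097 and POLE, the leading-strand polymerase, by 0.56 ± 0.060. The primase subunits PRIM1 and PRIM2 rose by 0.54 ± 0.13 and 0.34 ± 0.10, and POLD2 by 0.27 ± 0.079. The exception was POLA2, with 4.51, 5.62 and 5.93 CPM under KD2 and 3.88, 4.03 and 3.81 CPM in NT (0.45, adjusted p = 0.054). It was called by DESeq2 (adjusted p = 0.048) and without KD2 replicate 1 (0.032), and 21.3% of its exonic length overlaps other genes.

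The sliding clamp PCNA, which tethers polymerases to DNA, rose too. It had 105, 98.7 and 101 CPM under KD2, against 75.9, 73.9 and 79.3 CPM in NT (0.41 ± 0.060, adjusted p = 8.9e-06), groups that do not overlap. Of the clamp loader, RFC3 rose by 0.93 ± 0.11, RFC1 by 0.55 ± 0.072, RFC4 by 0.52 ± 0.11 and RFC2 by 0.46 ± 0.10. RFC5 had 20.8, 20.2 and 20.5 CPM under KD2 and 20.0, 16.3 and 16.2 CPM in NT and was not called (0.23, adjusted p = 0.085; 0.34 with an adjusted p of 0.015 without NT replicate 1). FEN1, which trims Okazaki fragments, rose by 0.59 ± 0.098. The 3 subunits of RPA, which coats single-stranded DNA, rose by small amounts, RPA2 by 0.35 ± 0.082, RPA3 by 0.34 ± 0.10 and RPA1 by 0.26 ± 0.067. The RPA3 call ended without NT replicate 1 (adjusted p = 0.063) and without KD2 replicate 3 (0.091). PCNA, RFC2 and RFC4 were not followed singly in this way.

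Of the fork protection genes, CLSPN, claspin, which links stalled forks to checkpoint kinase, had 13.2, 12.9 and 10.5 CPM under KD2, against 3.94, 3.87 and 4.61 CPM in NT (1.56 ± 0.17). Its partners TIPIN and TIMELESS rose by 0.50 ± 0.13 and 0.49 ± 0.072, and the claspin interval (1.20 to 1.92) lies above theirs (0.22 to 0.77 and 0.34 to 0.64). The chromatin assembly factor, which places histones behind the fork, has 2 members here. CHAF1B rose by 0.65 ± 0.11, whereas CHAF1A had 48.8, 51.5 and 51.3 CPM under KD2 and 43.8, 50.8 and 43.4 CPM in NT (0.14, adjusted p = 0.2). Without NT replicate 2 CHAF1A was called higher too (0.21, adjusted p = 0.019), as it was by limma-voom (0.042).

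The E2F genes had the highest median of all role groups, 1.96. E2F7 and E2F8, repressors that E2F itself induces, both rose. E2F7 had 3.49, 4.96 and 4.76 CPM under KD2, against 1.09, 0.595 and 0.800 CPM in NT (2.40 ± 0.27), and E2F8 had 7.12, 7.84 and 7.68 CPM under KD2, against 2.24, 3.14 and 1.22 CPM in NT (1.77 ± 0.25). E2F2, an activator, had 23.1, 22.2 and 22.5 CPM under KD2, against 5.22, 4.89 and 5.22 CPM in NT (2.14 ± 0.15, adjusted p = 7e-11). E2F1, the best known activator (ENSG00000101412, GRCh38 chromosome 20, 33675477 to 33686385), had 40.9, 41.9 and 41.5 CPM under KD2, against 15.2, 18.1 and 16.3 CPM in NT (1.33 ± 0.096, adjusted p = 1.8e-10). All 4 genes were separated between the groups without overlap.

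Of the cyclins and kinases of G1, 2 of 7 were called higher and 0 lower, with a median of 0.17. CCNE1, cyclin E1, had 2.53, 3.05 and 2.84 CPM under KD2, against 1.34, 1.32 and 0.915 CPM in NT (1.23 ± 0.27, adjusted p = 0.00096), and its partner CDK2 rose by 0.55 ± 0.10. CCNE2, the other E cyclin, had 11.0, 10.3 and 12.0 CPM under KD2 and 10.2, 7.70 and 10.8 CPM in NT (0.21, 95% interval -0.090 to 0.52), with 37.1% of its exonic length overlapped by other genes. CCND1, cyclin D1 (ENSG00000110092, GRCh38 chromosome 11, 69641156 to 69654474), was the member with the highest CPM and was not called, with 550.1, 562 and 559 CPM under KD2 and 569, 511 and 564 CPM in NT (0.023, -0.077 to 0.12). CCND3 and CDK4, a second D cyclin and the main D cyclin kinase, had log2 fold changes of 0.11 and 0.17 (adjusted p = 0.34 and 0.065). Both were called higher without NT replicate 2 (0.22 each, adjusted p = 0.0057 and 0.0063), and by limma-voom (0.023 and 0.015), and CDK4 also by DESeq2 (0.041). Of CDK4, 44.2% of the exonic length overlaps TSPAN31. CDK6 stood at 0.454, 0.660 and 0.543 CPM under KD2 and 0.870, 0.925 and 1.41 CPM in NT, on 2 to 63 counts a library (-0.95, -2.14 to 0.24, adjusted p = 0.22). It was not called, although its groups did not overlap. The pocket proteins rose, RBL1, p107, by 0.92 ± 0.14 and RB1 by 0.40 ± 0.092.

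The change was also set beside the level in NT. The 21 members under 10 CPM in NT had a median log2 fold change of 1.25, the 25 members from 10 to under 50 CPM 0.55 and the 12 members at 50 CPM or more 0.40, with 18, 20 and 9 of them called higher. This is a description across genes, which are not independent, and the log2 changes of the lowest genes rest on few counts. The NT level enters both the grouping and the log2 fold change, so noise in NT alone can link them.

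No member was called in the libraries labelled KD1. Against NT edgeR called 0 of 58 members in either direction (0% of all genes tested), as did DESeq2 and limma-voom. At an unadjusted p under 0.05 stood 1 member, ORC3, against 6.12% of all genes (log2 fold change 0.23, adjusted p = 0.79). CDT1 had 12.1, 11.2 and 11.8 CPM under KD1 and 10.5, 12.1 and 11.2 CPM in NT, and E2F1 14.8, 12.8 and 15.8 CPM under KD1 and 15.2, 18.1 and 16.3 CPM in NT. Libraries of these groups overlap. All libraries labelled KD1 lay above all NT libraries for 4 members (CCND1, GINS2, PRIM2 and TIPIN) and below them for 2 (RFC4 and POLA2; 4.41% and 4.99% of all genes). For 55 of 58 members the 95% interval excluded a 2-fold change either way, and for 48 a 1.5-fold change; GINS4, E2F7 and CDK6 were the 3 with the wider intervals. KD2 against KD1 tests the labels against each other and called 45 members higher and 0 lower (17.9% and 17.5% of all genes). At an unadjusted p under 0.05 there were 50 higher and 1 lower, CDK6 (43.2% of all genes in either direction), and DESeq2 called 45 higher and limma-voom 49, with 0 lower by both. Libraries labelled KD2 lay above all those labelled KD1 for 50 members and below for 2, CCND1 and CDK6 (25.2% and 24.6% of all genes). CDT1 had 42.3, 44.0 and 39.7 CPM under KD2, against 12.1, 11.2 and 11.8 CPM under KD1 (1.84 ± 0.096, adjusted p = 5e-13). MCM2 rose by 1.34 ± 0.10 in that comparison and E2F1 by 1.51 ± 0.097. The comparisons of KD2 with NT and with KD1 share the libraries labelled KD2.

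**Figure D4:**
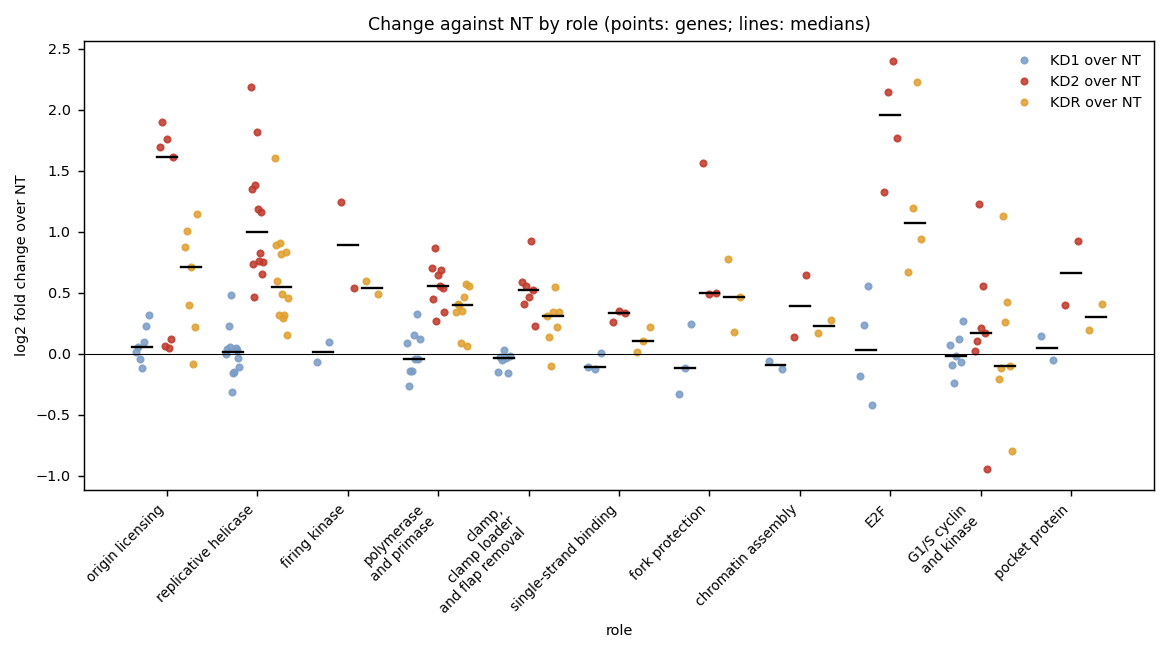
Log2 fold change over NT of each gene (points) in the libraries labelled KD1, KD2 and KDR, by role, with medians as lines; the 3 comparisons share the NT libraries. Medians for KD1 lie near 0, those for KD2 are highest, and those for KDR lie between them in every role but the G1/S cyclins and kinases.

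In the libraries labelled KDR, most of these genes were lower than in those labelled KD2. Against KD2, edgeR called 34 of 58 members lower and 1 higher, where 17.1% of all genes were called lower and 15.3% higher; the median was -0.29, beside 0.016 over all genes. Libraries labelled KDR lay below all those labelled KD2 for 38 members and above for 4, GMNN, ORC3, PRIM2 and RFC5 (25.4% and 24.5% of all genes), and 39 members had an unadjusted p under 0.05 (41.6% of all genes). CDT1 had 21.6, 24.7 and 21.7 CPM under KDR, against 42.3, 44.0 and 39.7 CPM under KD2, and fell by 0.89 on the log2 scale (SE 0.091, adjusted p = 6.7e-08). CDC6 had 22.3, 18.2 and 16.8 CPM under KDR, against 36.4, 33.6 and 31.1 CPM under KD2 (-0.82 ± 0.11, adjusted p = 6.3e-06). E2F1 had 25.3, 25.2 and 28.3 CPM under KDR, against 40.9, 41.9 and 41.5 CPM under KD2 (-0.66 ± 0.093, adjusted p = 7.9e-06). The groups do not overlap in any of the 3 genes.

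All 6 subunits of the helicase ring fell under KDR relative to KD2. MCM4 had 107, 112 and 109 CPM under KDR, against 161, 150.2 and 154 CPM under KD2 (-0.51 ± 0.058, adjusted p = 4e-07), and MCM2 had 18.0, 17.7 and 17.7 CPM under KDR, against 28.4, 29.3 and 28.6 CPM under KD2 (-0.69 ± 0.10). MCM6, MCM3, MCM5 and MCM7 had log2 fold changes of -0.50, -0.46, -0.33 and -0.29, all called. MCM10 had -1.001 ± 0.21 and CDC45 -0.58 ± 0.20. The CDC45 call ended without KD2 replicate 1 or 2 or without KDR replicate 1 or 2 (adjusted p = 0.07 to 0.11). ORC1 changed most among members, with 5.21, 5.35 and 4.39 CPM under KDR, against 9.79, 9.96 and 11.1 CPM under KD2 (-1.04 ± 0.18, adjusted p = 0.00011).

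RFC1, the large subunit of the clamp loader, had 61.6, 63.2 and 63.1 CPM under KDR, against 101, 100.1 and 93.9 CPM under KD2 (-0.65 ± 0.072, adjusted p = 2e-07). Its level under KDR was within the range of NT, 72.1, 59.3 and 69.8 CPM, and the change against NT was -0.099 (-0.25 to 0.050, adjusted p = 0.34). Without NT replicate 2, RFC1 was called lower than NT (-0.19, adjusted p = 0.011). PCNA had 85.8, 83.8 and 82.7 CPM under KDR, against 105, 98.7 and 101 CPM under KD2 (-0.27 ± 0.060, adjusted p = 0.0012), and was not called against NT although its libraries lay above those of NT (0.14, adjusted p = 0.091). E2F2 had 13.2, 12.4 and 9.40 CPM under KDR, against 23.1, 22.2 and 22.5 CPM under KD2 (-0.95 ± 0.14). E2F7 was not called, with 4.18, 3.42 and 4.10 CPM under KDR and 3.49, 4.96 and 4.76 CPM under KD2 (-0.17, -0.65 to 0.31), and neither was CCNE1 (-0.098, -0.63 to 0.43). An interval that includes 0 does not show that these levels are equal.

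Geminin was the member called higher under KDR than under KD2. GMNN had 40.9, 39.6 and 38.3 CPM under KDR, against 30.4, 33.6 and 30.1 CPM under KD2 (0.34 ± 0.13, adjusted p = 0.045). All KDR libraries were above all KD2 libraries, but the call ended when any single library labelled KD1, KD2 or KDR was left out (adjusted p = 0.054 to 0.14). CCND1 had 474, 485 and 467 CPM under KDR, against 550.1, 562 and 559 CPM under KD2 (-0.23 ± 0.048, adjusted p = 0.00071). Against 569, 511 and 564 CPM in NT, CCND1 fell by 0.21 under KDR (SE 0.048, adjusted p = 0.0024), the only member called lower than NT, and its KDR libraries lay below all libraries of both other groups. CDK4 had 56.1, 57.8 and 58.9 CPM under KDR, against 66.4, 70.0 and 71.3 CPM under KD2 (-0.27 ± 0.070, adjusted p = 0.0051). Among other calls against KD2, those of FEN1 ended without any 1 of the libraries labelled KD2 or KDR (adjusted p = 0.057 to 0.083). The calls of POLA1, RPA2 and CCND3 ended without any of 3, 4 and 7 libraries, and those of RFC3 and E2F8 (KDR replicates 3 and 2) and CHAF1B (KD2 replicate 3) without 1. Single calls were followed for 43 genes, DHODH among them, so calls of the other members may have ended too.

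Relative to NT, most members were higher in the libraries labelled KDR. Of 58 members, 36 were called higher and 1 lower under KDR than in NT, where 13.0% of all genes were called higher and 14.5% lower; without NT replicate 2 the counts were 35 and 3, with ORC2 (-0.22, adjusted p = 0.041) and RFC1 called lower beside CCND1. The members' median was 0.40, beside 0.0088 over all genes. Libraries labelled KDR lay above all NT libraries for 43 members and below for 1 (19.4% and 18.7% of all genes), and 45 members had an unadjusted p under 0.05 (37.4% of all genes). This comparison shares libraries with each of the other 2, so the counts are not independent of theirs. CDT1 had 21.6, 24.7 and 21.7 CPM under KDR, against 10.5, 12.1 and 11.2 CPM in NT (1.01 ± 0.097, adjusted p = 3.7e-08). MCM5 had 43.7, 43.0 and 42.9 CPM under KDR, against 21.5, 26.5 and 24.9 CPM in NT (0.83 ± 0.082, adjusted p = 5.8e-08). CDC45 had 8.68, 9.38 and 10.5 CPM under KDR, against 4.69, 2.81 and 1.75 CPM in NT (1.604 ± 0.22), and E2F7 4.18, 3.42 and 4.10 CPM under KDR, against 1.09, 0.595 and 0.800 CPM in NT (2.22 ± 0.27). For these genes every library labelled KDR exceeded every NT library.

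Roles differed in how many members were called against NT under KDR. In the helicase group 10 of 12 were higher, MCM6 (0.15, -0.0015 to 0.31) and GINS3 (0.32, -0.028 to 0.67) being the others. All 4 E2F genes, both CDC7 and DBF4, 5 of 7 licensing genes and 6 of 9 polymerase and primase genes were higher. Of the RPA subunits and of the chromatin assembly factor none was called (0 of 3 and 0 of 2); at an unadjusted p under 0.05 there were 1 (RPA3) and 2, DESeq2 called CHAF1B (adjusted p = 0.047), and CHAF1A was called by limma-voom (0.015) and without NT replicate 2 (0.0084). POLE, the leading-strand polymerase, had 112, 114 and 113 CPM under KDR, 117, 122 and 122 CPM under KD2 and 83.5, 84.7 and 77.3 CPM in NT; it was not called between KDR and KD2 (-0.093, -0.22 to 0.030). PRIM2 had 24.2 CPM under KDR, 20.9 CPM under KD2 and 16.5 CPM in NT (means). It was not called between KDR and KD2 either, but went the other way (0.21, unadjusted p under 0.05 by edgeR). Its KDR libraries lay above all those labelled KD2. Calls against NT of POLE2, RBL1, POLD1, FEN1, GINS4, GMNN, POLA1, RFC5 and TIPIN under KDR ended when a single library was left out. In a fit of KDR and NT alone the calls of POLE2, RBL1, POLD1, FEN1, GINS4 and GMNN also ended (adjusted p = 0.054 to 0.083). Those of POLE2 and RBL1 ended with limma-voom as well (0.058 and 0.068), and that of POLE2 with no filter on low counts (0.12).

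Other genes of the same machinery, from 4 further lists, moved in the same comparisons. Of their 54 tested genes, 33 were called higher and 4 lower under KD2 than in NT (17.8% and 18.2% of all genes), with a median of 0.37. Under KDR 24 were called lower and 1 higher than under KD2 (17.1% and 15.3% of all genes). Against NT 21 were called higher and 8 lower under KDR (13.0% and 14.5% of all genes). The share called lower there, 14.8%, was near that of all genes. Of the 24 other G1/S regulators, 5 were called higher and 5 lower under KDR than in NT. The 4 lower under KD2 were ORC5 (-0.31), POLD4 (-0.98), RBL2 (-0.21) and CDKN2A (-1.76), and ORC5 was the one higher under KDR than under KD2 (0.22). RECQL4, a helicase of origin firing, had 60.1 ± 3.27 CPM under KD2, against 29.2 ± 3.38 CPM in NT (1.05 ± 0.088; mean ± SD, n = 3 each), and TICRR, which with TOPBP1 recruits CDC45, rose by 1.36 ± 0.13. LIG1, the ligase that joins Okazaki fragments, rose by 0.90 ± 0.076, and the clamp loader variant subunits DSCC1 and CHTF18 by 1.33 ± 0.16 and 0.85 ± 0.081. Under KDR, DSCC1 had 7.24 ± 0.574 CPM, against 15.7 ± 1.11 CPM under KD2 (-1.12 ± 0.16), while CHTF18 had 67.9 ± 1.55 CPM, against 67.5 ± 3.31 CPM (0.0096 ± 0.079, adjusted p = 0.94). Of the histone chaperones, ASF1B rose by 1.78 ± 0.13 under KD2 against NT, and ASF1A was not called (0.14, adjusted p = 0.31). CCNA2, the S phase cyclin A, had 19.6 ± 2.45 CPM under KD2, against 5.79 ± 1.13 CPM in NT (1.76 ± 0.15).

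Enzymes of deoxynucleotide supply and genes of mitosis moved beside the members. Of 8 supply genes 7 were higher under KD2 than in NT and 0 lower (17.8% and 18.2% of all genes). The exception was RRM2B (0.25, edgeR adjusted p = 0.086). It had 232, 211 and 208 CPM under KD2 and 209, 129.9 and 209 CPM in NT, where replicate 2 was the lowest. At an unadjusted p under 0.05 there were 8 higher and 0 lower (43.5% of all genes in either direction). RRM2, the regulated subunit of ribonucleotide reductase, had 48.6, 51.5 and 53.8 CPM under KD2, against 8.88, 10.3 and 11.3 CPM in NT (2.34 ± 0.10), and 27.4, 28.6 and 29.6 CPM under KDR. Of 16 genes of G2/M and mitosis all 16 were higher under KD2 than in NT (median 1.86), against 17.8% of all genes. All 16 were lower under KDR than under KD2 (median -1.05), against 17.1% of all genes. All 16 were also higher under KDR than in NT (median 0.75), against 13.0% of all genes. The summed level of the 16 was 768 to 798 CPM under KD2, 364 to 380.1 CPM under KDR, 205 to 215 CPM under KD1 and 207 to 213 CPM in NT. The summed level of the 10 luminal prostate markers was 10843 to 11158 CPM under KD2, 16206 to 16643 CPM under KDR, 16213 to 16595 CPM under KD1 and 16134 to 19114 CPM in NT. Of these markers, 9 of 10 were called lower under KD2 than in NT (18.2% of all genes). The part of these other changes in the members' change was not tested.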

How the data were processed

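The authors deposited one table of raw counts per library, made per the file headers by featureCounts 1.6.4 from exons summed to genes (Ensembl release 111, GRCh38); the command sets no strand, pair or multi-mapping option. FastQC, cutadapt and HISAT2 are named in the submitters' processing notes; versions: not given in the sources used here. By the tool's default, reads in exons of 2 genes are not counted; 30 of 58 members overlap another gene in part, 6 over more than 20% of exonic length.

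Counts were tested with edgeR 4.0.16 in R 4.3.3 (filterByExpr by group, TMM, quasi-likelihood F test, group as only term, 12 libraries in 1 fit). SEs and 95% intervals were derived from the F statistic. DESeq2 1.42.0 and limma 3.58.1 were alternatives. The method was tested on simulated counts with known changes, in which each gene had the same spread in all groups. The simulation thus leaves out the wider spread of NT (a biological coefficient of variation of 15.7%), and no result here rests on it. No pairing by replicate number was seen: 0 of 18 same-numbered pairs correlated above 0.1 in their deviations (-0.023 to 0.039). This cannot show that same-numbered libraries were prepared apart.

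The members and lists were chosen with earlier results of these data known, so counts of members beside those over all genes are descriptions. Named were DHODH, the 3 largest called changes per role and all uncalled members in KD2 against NT, and the 6 smallest p-values in KDR against KD2; of other lists, up to 4 genes by p. Members beyond these complete their complex or were chosen after their values were seen.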

Additional observations from a re-analysis of the deposited data

Results flagged for a closer look

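The 2 knockdown labels differed in their change against NT. In the comparison that tests this difference itself, edgeR called 45 of 58 members higher under KD2 than under KD1 and 0 lower. Of all genes tested, 17.9% were called higher and 17.5% lower there. The check for single outlying values was not run, since it needs groups of at least 4 libraries.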

How the results depend on the processing

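Counts of called members kept within 1.5 times of those reported under DESeq2, its size factors, other filters, a fit of the 2 groups compared, a replicate block and limma-voom, apart from small counts. With the replicate block, 47 members were higher under KD2 than in NT, 35 lower under KDR than under KD2, 34 higher under KDR than in NT (without POLE2, adjusted p = 0.052, and RBL1, 0.050) and 45 higher under KD2 than under KD1. Limma-voom called 2 members higher under KDR than under KD2 in place of 1, and a fit of the 2 groups called 1 lower under KD2 than under KD1 in place of 0. A required log2 change of 1 or more in size left 17 members higher for KD2 against NT and 17 for KD2 against KD1. It left 2 lower and 0 higher for KDR against KD2, and 6 higher and 0 lower for KDR against NT. The share of all genes passing that cut was not counted, so these counts have no background beside them.

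With 1 library left out, 45 to 50 members were higher and 0 lower for KD2 against NT, 27 to 37 lower and 0 to 1 higher for KDR against KD2, 28 to 36 higher and 1 to 3 lower for KDR against NT, 43 to 49 higher and 0 to 1 lower for KD2 against KD1, and 0 either way for KD1 against NT. Of 129 log2 fold changes followed for 43 genes, 20 of 2451 recomputed values changed sign, none of them of a called gene. Not followed singly were MCM3, MCM5, MCM6, MCM7, GINS1, GINS2, GINS3, ORC6, PRIM1, PRIM2, POLD2, POLD3, POLE, PCNA, RFC2 and RFC4. Calls of these members may also have ended in some settings. For KD2 against NT limma-voom gave -0.030 for ORC2, -0.027 for GMNN and -0.0099 for CCND1, and leaving out 1 library gave -0.079 to 0.18 for ORC2, -0.12 to 0.25 for GMNN and -0.026 to 0.051 for CCND1. For KDR against KD2, CDK6 had -0.027 with the replicate block, -0.75 with limma-voom and -0.60 to 0.71 with 1 library left out, where TIPIN had -0.13 to 0.061, POLA2 -0.16 to 0.029 and CCNE2 -0.040 to 0.14. For KDR against NT, RPA1 had -0.044 to 0.067 and ORC2 -0.22 to 0.038. The cause of these changes was not tested. Depth limits the genes of few counts, CDK6, E2F7, CCNE1 and GINS4.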

Other observations

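Inhibitors of the cyclin-dependent kinases, which hold cells in G1, did not move as one group. CDKN2A, whose locus encodes p16 and ARF, had 1.22, 1.35 and 2.71 CPM under KD2, against 4.63, 6.58 and 6.40 CPM in NT (-1.76 ± 0.28, edgeR adjusted p = 3.2e-05). Under KDR it had 1.67, 1.61 and 0.768 CPM and was also lower than NT (-2.10 ± 0.29, adjusted p = 7e-06). Under KD1 it had 4.25, 4.33 and 4.29 CPM, below every NT library too, but was not called. CDKN1A, p21, had 214, 228 and 224 CPM under KD2, against 179, 195 and 172 CPM in NT (0.29 ± 0.057, adjusted p = 0.00033). It had 133, 141 and 140.3 CPM under KDR, below every NT library (-0.40 ± 0.058, adjusted p = 1.5e-05). CDKN2C, p18, rose by 0.53 ± 0.10 and CDKN1B, p27, by 0.26 ± 0.063 under KD2 against NT. CDKN2B changed by -0.13 on that scale (edgeR adjusted p = 0.74). The remaining inhibitors listed, CDKN1C and CDKN2D, had means of 1.87 and 10.3 CPM under KD2, against 2.42 and 8.45 CPM in NT. Their libraries overlap between these groups. These genes come from the list of other G1/S regulators and were singled out after their values were seen; no hypothesis was tested on them.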
